A study of Mus musculus with 15 samples.

Results

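Lhx2, Tbx1, Nfatc1, Runx1, Cd34 and Cd200, genes that mark the bulge of the hair follicle, were followed in tumour nests of mouse basal cell carcinoma. They were taken from a list of names, with no threshold on a measured value, and are 6 of the 36528 gene identifiers listed in each library. That list was chosen with earlier results of these data known. RNA carrying a polyA tail was sequenced from nests cut by laser from frozen skin, in 3 groups of 5 libraries. Every mouse, treated or not, carried K14Cre-ER, an inducible Cre under the keratin 14 promoter, which removes the floxed alleles Ptch1fl/fl (the Hedgehog receptor) and p53fl/fl (a tumour suppressor) from cells that use that promoter. All also carried Lgr5GFP. The vismodegib group came from mice given this Smoothened inhibitor for 28 days, and the untreated nests were divided by the proliferation antigen Ki67 into a positive and a negative group. The comparisons ask which bulge genes differ in the nests that remain under Hedgehog pathway inhibition, and whether they differ between untreated nests with and without Ki67. Neither age nor animal is given for any library. Some nests of a group may come from 1 animal, which would make the p-values too small, and a share of the variation among libraries may be technical.

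The bulge is the part of the hair follicle's outer sheath that houses its stem cells. These cells rest through most of the hair cycle and rebuild the lower follicle when a new cycle begins. Lhx2, a LIM homeodomain factor, maintains follicle stem cells and their organisation. Tbx1, a T-box factor, supports their self-renewal. Nfatc1, a calcineurin-dependent factor, keeps them quiescent, and Runx1 promotes their entry into a new growth phase. Cd34, a sialomucin, and Cd200, an inhibitory ligand for a receptor on myeloid cells, are surface proteins by which bulge cells are recognised and sorted in mouse and human skin respectively.

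Promoters are shown for the 3 genes that fell in both comparisons with vismodegib, Lhx2, Tbx1 and Cd200, and for Cd34, which was called in neither. Each is the 250 bases before an annotated start in RefSeq (GRCm38.p6), read 5′ to 3′ along the gene, and capitals mark a match to a searched motif. Tbx1 has 2 annotated starts. Lhx2 is shown at the start that lies outside its other exons.
Lhx2, chr2:38339031-38339280, plus strand: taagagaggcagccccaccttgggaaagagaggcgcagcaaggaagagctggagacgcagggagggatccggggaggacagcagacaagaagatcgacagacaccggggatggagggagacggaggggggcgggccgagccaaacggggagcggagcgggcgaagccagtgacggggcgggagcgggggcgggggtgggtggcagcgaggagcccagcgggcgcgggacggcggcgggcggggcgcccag
Tbx1 start 1, chr16:18588900-18589149, minus strand: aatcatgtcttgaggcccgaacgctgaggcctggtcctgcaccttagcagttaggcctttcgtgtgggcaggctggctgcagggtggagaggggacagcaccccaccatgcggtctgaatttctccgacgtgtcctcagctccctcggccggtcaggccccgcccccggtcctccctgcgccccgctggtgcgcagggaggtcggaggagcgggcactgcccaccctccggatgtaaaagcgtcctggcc
Tbx1 start 2, chr16:18590672-18590921, minus strand: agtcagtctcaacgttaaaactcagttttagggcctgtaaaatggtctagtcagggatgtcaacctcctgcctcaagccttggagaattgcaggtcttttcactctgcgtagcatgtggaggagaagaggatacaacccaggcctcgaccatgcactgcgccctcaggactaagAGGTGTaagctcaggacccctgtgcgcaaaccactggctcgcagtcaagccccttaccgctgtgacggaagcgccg
Cd200, chr16:45409054-45409303, minus strand: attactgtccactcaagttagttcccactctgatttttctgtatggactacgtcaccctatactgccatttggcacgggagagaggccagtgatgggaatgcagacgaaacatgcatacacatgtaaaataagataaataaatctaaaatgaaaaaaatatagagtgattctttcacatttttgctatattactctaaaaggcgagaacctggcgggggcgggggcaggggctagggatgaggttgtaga
Cd34, chr1:194938571-194938820, plus strand: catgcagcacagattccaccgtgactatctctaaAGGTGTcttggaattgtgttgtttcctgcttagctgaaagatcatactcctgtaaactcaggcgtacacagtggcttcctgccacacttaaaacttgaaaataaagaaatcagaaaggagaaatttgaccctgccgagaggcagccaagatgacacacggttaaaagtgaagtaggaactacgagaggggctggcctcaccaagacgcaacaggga

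Both strands of these windows were searched for 6 short motifs, which are descriptions of letters and not sites. A GLI motif (GACCACCCA) was in 0.225% of 32851 promoters of the same length, a RUNX motif (TGTGGT) in 14.0%, a T-box motif (AGGTGT) in 11.8%, a LIM homeodomain motif (TAATTA) in 4.84%, a TCF/LEF motif (CTTTGA) in 13.8% and an NFAT motif (TGGAAA) in 18.6%. No searched motif overlapped another in the windows printed. The letters AGGTGT occurred at position -76 from the second Tbx1 start and at position -216 from the Cd34 start. The Lhx2, first Tbx1 and Cd200 windows held none of the 6 motifs. GC content was 72.8% for Lhx2, 67.2% and 54.4% for the Tbx1 starts, 42.4% for Cd200 and 46.4% for Cd34.

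Total counts per library ran from 4887381 to 10328822, with 6413055 to 10328822 in the vismodegib group, 4929869 to 8359195 in the Ki67-positive group and 4887381 to 7158143 in the Ki67-negative group. Ki67-negative library 5 stood apart with 19669 genes that had a count, against 21653 to 23322 in the other libraries. Library numbers follow accession order and pair nothing. The Ki67-negative libraries have later accession numbers than the other groups, and a batch, if there was one, cannot be told apart from that group. The Hedgehog-responsive genes Gli1, Ptch1 and Hhip were all lower after vismodegib in both comparisons. Their summed level was 173.9 to 1042 CPM (counts per 1e+06 counts of the scaled library) after vismodegib and 2766 to 4969 CPM in the untreated libraries, and it was lowest in vismodegib libraries 1 and 5, at 185.1 and 173.9 CPM. Ptch1, a floxed gene in these mice, was the largest part of that sum by group means. It averaged 551 CPM after vismodegib, 2970 CPM in Ki67-positive and 3150 CPM in Ki67-negative nests. Counts from a recombined and an intact Ptch1 allele cannot be told apart here. The tissue label was matched by 8 basal epithelial genes, Krt14, Krt5, Krt17, Trp63, Cdh1, Itga6, Itgb4 and Epcam, which summed to 10650 to 14130 CPM after vismodegib, 7485 to 8615 CPM in Ki67-positive nests and 5521 to 9182 CPM in Ki67-negative nests. Of these 8, Krt14, Krt5, Cdh1 and Itga6 were higher after vismodegib in both comparisons, and Krt17 was lower against Ki67-positive nests.

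After vismodegib, 3 of the 6 bulge identity genes were lower than in Ki67-positive nests, namely Tbx1, Lhx2 and Cd200, and 0 were higher. Against Ki67-negative nests 4 were lower, the same 3 and Runx1, and 0 were higher. A gene was called when its adjusted p was under 0.05 in edgeR's quasi-likelihood test, with Benjamini-Hochberg adjustment over the 17282 genes tested. All 6 members passed the filter on low counts. Of all genes tested, 26.0% were called in the comparison with Ki67-positive nests (13.4% lower, 12.6% higher) and 31.9% in the comparison with Ki67-negative nests (16.5% lower, 15.4% higher). The members' median log2 fold change was -0.69 and -1.06 in these comparisons, beside -0.02 and -0.03 over all genes. Because the members were chosen with earlier results known, their counts and medians beside all genes are a description and not a test. The libraries of Lhx2, Tbx1 and Cd200 did not overlap between vismodegib and either untreated group, as was true of 20.3% of all genes against Ki67-positive nests and 20.5% against Ki67-negative nests. These comparisons share the vismodegib libraries and are not independent of each other. In nests cut from tissue, fewer cells of a type and less RNA per cell cannot be told apart.

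**Figure D1:**
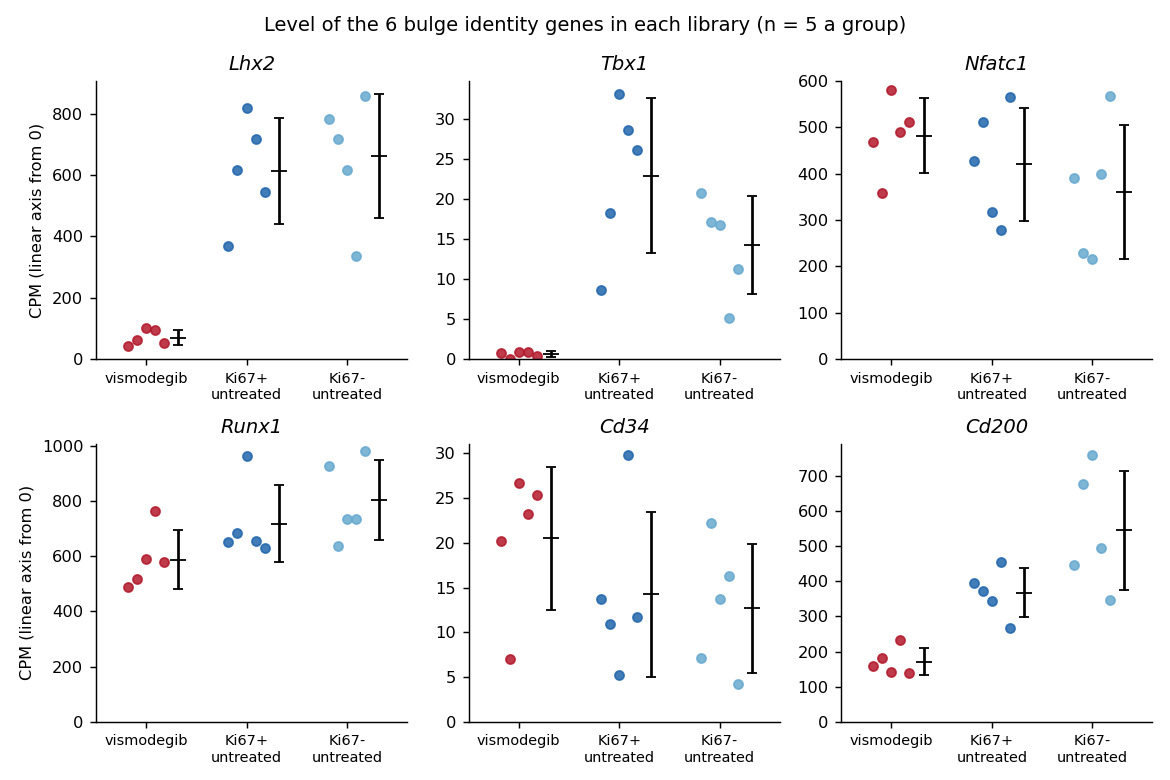
CPM of each bulge identity gene (linear axis from 0, its own scale in each panel) in the 15 libraries, with the mean and SD of 5 libraries in black. All vismodegib libraries lie below all untreated libraries for Lhx2, Tbx1 and Cd200, and the groups overlap for Nfatc1, Runx1 and Cd34.

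Lhx2 (NCBI Gene 16870, chr2:38339271-38369737 in GRCm38.p6) stood at 41.3, 63.6, 101, 93.2 and 51.9 CPM in vismodegib libraries 1 to 5. It stood at 368, 615, 820, 719 and 545 CPM in the Ki67-positive libraries and at 784, 719, 618, 337 and 857 CPM in the Ki67-negative libraries. The highest vismodegib library was thus below the lowest untreated one. The log2 fold change was -3.12 against Ki67-positive nests (SE 0.298, adjusted p = 1.39e-06) and -3.24 against Ki67-negative nests (SE 0.3, adjusted p = 9.17e-07), an 8.71-fold and a 9.42-fold lower level. Without Ki67-negative library 5, where few genes were detected, the latter was -3.12. Vismodegib libraries 1 and 5, lowest in the summed Hedgehog-responsive genes, also had the lowest Lhx2. Tbx1 was lowest, at 0 counts, in vismodegib library 2, where that sum was 1005 CPM. A link between the members and the Hedgehog-responsive genes within the treated group was not tested. Ki67-positive library 1 and Ki67-negative library 4 had the lowest Lhx2 of their groups and also the highest sums of 10 endothelial genes (71.71 and 98.89 CPM) of 7 mast cell genes (668.9 and 1033 CPM) and of 9 T and NK cell genes (88.14 and 117.8 CPM). They had the lowest sums of 7 melanocyte genes of their groups, at 339.4 and 184.7 CPM, beside 803 to 1545 CPM and 618.1 to 1216 CPM in the other libraries. The part of those cells in the Lhx2 level was not tested.

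A pair of long noncoding RNA genes share bases with Lhx2, and the use of strand in counting is not given in the sources used here, so reads of overlapping genes cannot be told apart. Gm27197 overlaps it by 4435 bases and had 184 counts over the vismodegib libraries, 5576 over the Ki67-positive and 6617 over the Ki67-negative libraries. Its log2 fold change was -5.11 (SE 0.384, adjusted p = 1.57e-07) against Ki67-positive nests. Gm13584, with 8518 shared bases, had 469, 4649 and 5243 counts in the same order and changed by -3.49 on the log2 scale (SE 0.266, adjusted p = 9.66e-08). Both were also lower against Ki67-negative nests, by -5.56 and -3.86 on the log2 scale. Lhx2 itself had 2858, 22103 and 20958 counts, so its total was the largest of the 3 in every group.

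Tbx1 (NCBI Gene 21380, chr16:18580979-18590671) was nearly undetected after vismodegib, with 5, 0, 9, 7 and 3 counts in libraries 1 to 5, or 0.771, 0, 0.891, 0.851 and 0.393 CPM. Its levels were 8.6, 18.2, 33.1, 28.6 and 26.1 CPM in the Ki67-positive libraries and 20.8, 17.1, 16.8, 5.13 and 11.2 CPM in the Ki67-negative libraries. The lowest untreated library was above every vismodegib library. The log2 fold change was -5.21 (SE 0.536, adjusted p = 1.76e-06) against Ki67-positive nests and -4.52 (SE 0.531, adjusted p = 6.4e-06) against Ki67-negative nests. The summed counts were 24 after vismodegib against 827 in Ki67-positive nests, a depth-adjusted ratio of 0.0261 with a 95% interval of 0.0166 to 0.0391. Against the 442 counts of Ki67-negative nests the ratio was 0.0441 (0.028 to 0.0665), and both intervals cover counting error only. The long noncoding gene Gm35369 overlaps Tbx1 by 1873 bases and had 2, 59 and 18 counts in the vismodegib, Ki67-positive and Ki67-negative groups.

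The lowest Tbx1 libraries of the untreated groups were those with the lowest Lhx2, Ki67-positive library 1 and Ki67-negative library 4. The 10 untreated libraries fell apart on both genes, with these libraries below the other 8. Within the other 8, deviations of Lhx2 and Tbx1 from their group means had a Pearson r of 0.16, so the joint movement of the genes rests on 2 libraries.

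Nfatc1 (NCBI Gene 18018, chr18:80606205-80713071) had levels that overlapped between all groups. It stood at 469, 359, 582, 490 and 511 CPM after vismodegib, at 428, 511, 318, 278 and 566 CPM in Ki67-positive nests and at 390, 228, 216, 400 and 568 CPM in Ki67-negative nests. The log2 fold change was 0.20 (95% interval -0.34 to 0.74, adjusted p = 0.6) against Ki67-positive nests and 0.42 (-0.12 to 0.96, adjusted p = 0.21) against Ki67-negative nests. Neither was called, and both intervals include changes in either direction. Without Ki67-negative library 5, which had the highest Nfatc1 of its group and few detected genes, the second difference was 0.65 with an adjusted p of 0.0458, past the threshold.

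Runx1 (NCBI Gene 12394, chr16:92601466-92826074) had 489, 517, 590, 762 and 580 CPM after vismodegib. It had 651, 685, 964, 655 and 629 CPM in Ki67-positive nests and 927, 638, 734, 735 and 982 CPM in Ki67-negative nests. Vismodegib library 4 lay among the untreated libraries and the others below them. The log2 fold change was -0.29 (SE 0.156, 95% interval -0.63 to 0.05, adjusted p = 0.192) against Ki67-positive nests, which was not called. Against Ki67-negative nests it was -0.45 (SE 0.156, adjusted p = 0.035), a 1.37-fold lower level. That call was lost when vismodegib library 1, 2, 3 or 5 or Ki67-negative library 1 or 5 was left out, with log2 fold changes of -0.45 to -0.37 and adjusted p of 0.0647 to 0.0901. The overlapping gene Gm30281 had 100, 17 and 46 counts in the vismodegib, Ki67-positive and Ki67-negative groups, beside 23098, 25450 and 25306 of Runx1.

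Of the surface proteins, Cd200 (NCBI Gene 17470, chr16:45382111-45409060) was lower after vismodegib. It had 158, 183, 142, 234 and 139 CPM in the vismodegib libraries, 396, 373, 344, 456 and 266 CPM in Ki67-positive nests and 448, 679, 761, 494 and 346 CPM in Ki67-negative nests. The highest vismodegib library, at 234 CPM, was below the lowest untreated one, at 266 CPM. The log2 fold change was -1.10 (SE 0.206, adjusted p = 0.000622) against Ki67-positive nests and -1.67 (SE 0.209, adjusted p = 1.17e-05) against Ki67-negative nests, a 2.14-fold and a 3.19-fold lower level. Without Ki67-negative library 5 the latter was -1.80.

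Cd34 (NCBI Gene 12490, chr1:194938821-194961292) was low in every group. It had 20.2, 6.96, 26.7, 23.2 and 25.4 CPM in the vismodegib libraries, 13.7, 10.9, 5.23, 29.8 and 11.7 CPM in Ki67-positive nests and 7.1, 22.2, 13.7, 16.3 and 4.19 CPM in Ki67-negative nests. The groups overlapped from end to end. The log2 fold change was 0.52 (95% interval -0.49 to 1.53, adjusted p = 0.449) against Ki67-positive nests and 0.69 (-0.33 to 1.71, adjusted p = 0.276) against Ki67-negative nests. Cd34 is also made by blood vessel endothelium and by fibroblasts. The 10 endothelial genes summed to 32.83 to 69.26 CPM after vismodegib, 16.99 to 71.71 CPM in Ki67-positive nests and 15.65 to 98.89 CPM in Ki67-negative nests, with no gene at 0 in any group, and 0 of 8 measured ones were called in either comparison with vismodegib. The 9 fibroblast genes summed to 440.2 to 3614, 1700 to 5914 and 2554 to 4736 CPM in the same order, with 2 lower against Ki67-positive and 3 against Ki67-negative nests. Over all genes tested, 13.4% and 16.5% were lower. Which cells supplied the Cd34 counts was not tested. Gm16897, which shares 5534 bases with Cd34, had 160, 120 and 93 counts and was not called.

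Genes listed for other cell types also differed with treatment in some lists, and the part of those cells in the members' levels was not tested. Beside the counts that follow, 26.0% of all genes tested were called against Ki67-positive nests and 31.9% against Ki67-negative nests. The 7 Langerhans and dendritic cell genes summed to 713.6 to 2346 CPM after vismodegib, 100 to 480.8 CPM in Ki67-positive nests and 134.4 to 465.4 CPM in Ki67-negative nests, with 7 and 5 of 7 higher. The 9 T and NK cell genes summed to 114.3 to 183.3, 62.61 to 88.14 and 57.76 to 117.8 CPM, with 5 and 4 of 9 higher. The 8 pericyte genes summed to 156.9 to 271.2, 670.5 to 1028 and 755.7 to 1130 CPM, with 6 of 8 lower in both comparisons. Cspg4 was the largest part of that sum in untreated nests, at means of 439 and 552 CPM, and 66.7 CPM after vismodegib. The list did not move as 1, since mean Rgs5 was 7.6, 6.78 and 7.07 CPM and mean Notch3 was 97.7, 59.1 and 62.9 CPM in the same order. The 7 melanocyte genes summed to 99.27 to 411.6, 339.4 to 1545 and 184.7 to 1216 CPM, with 4 and 3 of 7 lower and 1 higher against Ki67-negative nests. The 8 myeloid genes summed to 144.7 to 341.4, 45.86 to 162.6 and 72.92 to 407.5 CPM, with 2 of 8 higher in both comparisons and 1 lower against Ki67-negative nests. The 7 mast cell genes summed to 57.72 to 193.5, 30.07 to 668.9 and 103.4 to 1033 CPM, with 0 called against Ki67-positive and 1 lower against Ki67-negative nests. No gene of these lists was at 0 throughout a group. The members summed to 1130 to 1603 CPM after vismodegib, 1865 to 2484 CPM in Ki67-positive nests and 1987 to 2768 CPM in Ki67-negative nests.

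Levels of different genes were compared on the deposited RPKM scale, which divides by gene length. After vismodegib the order of mean levels was Runx1 (21.5 RPKM), Cd200 (19.8 RPKM), Nfatc1 (17.8 RPKM), Lhx2 (5.42 RPKM), Cd34 (2.14 RPKM) and Tbx1 (0.055 RPKM). Runx1, Cd200 and Nfatc1 overlapped, all Lhx2 libraries lay below them at 3.16 to 7.78 RPKM, and Cd34 lay below Lhx2 at 0.723 to 2.78 RPKM. In Ki67-positive nests the order was Lhx2 (47.6 RPKM), Cd200 (42.8 RPKM), Runx1 (26.5 RPKM), Nfatc1 (15.7 RPKM), Tbx1 (2.19 RPKM) and Cd34 (1.51 RPKM). In Ki67-negative nests Cd200 (64.1 RPKM) and Lhx2 (51.9 RPKM) were in front, followed by Runx1 (29.9 RPKM), Nfatc1 (13.5 RPKM), Tbx1 (1.37 RPKM) and Cd34 (1.35 RPKM). In both untreated groups the Lhx2 libraries overlapped those of Cd200 and of Runx1, and Tbx1 overlapped Cd34. By group means Lhx2 ranked 1 or 2 in untreated nests and 4 after vismodegib, while in Ki67-negative library 4 it stood at 26.0 RPKM, below Runx1 at 27.0 RPKM and Cd200 at 57.2 RPKM. Of the members' summed CPM it made up 5.19% ± 1.44 after vismodegib, 28.1% ± 5.52 in Ki67-positive and 27.2% ± 6.06 in Ki67-negative nests (SD, n = 5). Nfatc1 made up 36.3% ± 4.74, 19.9% ± 6.72 and 15% ± 5.41 of the same sum (SD, n = 5). A share also rises when other members fall, and the level of Nfatc1 itself was called in neither comparison with vismodegib.

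Between the untreated groups, none of the 6 members was called by edgeR, where 0.174% of all genes were called and 1.17% had libraries that did not overlap. At an unadjusted p under 0.05 there was 1 member, Cd200, and the same count of 1 was found with DESeq2 and limma voom, each with 0 called. Cd200 was 0.57 higher on the log2 scale in Ki67-negative nests (SE 0.204, adjusted p = 0.614), and the groups overlapped. Lhx2 differed by 0.11 (95% interval -0.48 to 0.71, adjusted p = 0.964) and Tbx1 by -0.69 (-1.59 to 0.21, adjusted p = 0.823). The intervals were -0.76 to 0.32 for Nfatc1, -0.18 to 0.5 for Runx1 and -1.2 to 0.85 for Cd34. The members' median difference was -0.03, beside 0.01 over all genes.

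Beside the members, 16 other genes known from the bulge or the neighbouring follicle were listed, and 15 passed the filter. Against Ki67-positive nests 5 were higher after vismodegib and 7 lower, and against Ki67-negative nests 4 were higher and 7 lower. Their median log2 fold change was -0.40 and -0.59. The shares called over all genes tested were 26.0% and 31.9% in these comparisons. Krt15, a keratin of basal bulge cells, rose from 582 ± 298 CPM in Ki67-positive nests to 2650 ± 459 CPM after vismodegib (SD, n = 5; log2 fold change 2.19, SE 0.336, adjusted p = 0.000162). Of the 8 basal epithelial genes, 4 were also higher against Ki67-positive nests, where 12.6% of all genes tested were. Their log2 fold changes were 1.40 for Krt14, 0.79 for Krt5, 1.19 for Cdh1 and 0.70 for Itga6. Krt17 was lower (-0.66, adjusted p = 0.0381), and the rest, among them Trp63 (0.14) and Itgb4 (-0.33), were not called. Whether the rise of Krt15 goes beyond that of the basal genes was not tested. Col17a1, the hemidesmosomal collagen of stem cell anchorage, rose by 1.08 on the log2 scale (adjusted p = 0.000492), and Fst, an activin antagonist, by 1.26 (adjusted p = 0.00136). Krt24 rose from 0.396 ± 0.405 to 8.91 ± 8.26 CPM (SD, n = 5; adjusted p = 0.000936), with a wide spread over the treated libraries (1.7 to 18 CPM). These 4 genes were also higher than in Ki67-negative nests, with log2 fold changes of 2.0 for Krt15, 0.81 for Col17a1, 1.34 for Fst and 4.76 for Krt24. Foxc1, a forkhead factor of stem cell quiescence, was higher against Ki67-positive nests (0.88, adjusted p = 0.0169) and not called against Ki67-negative nests (0.59, adjusted p = 0.0884).

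The 7 lower genes were the same in both comparisons. Tcf7l1, a Wnt-responsive repressor of bulge cells, fell from 53.1 ± 12.3 CPM in Ki67-positive nests to 7.89 ± 2.18 CPM (SD, n = 5; log2 fold change -2.74, SE 0.247, adjusted p = 4.01e-07). Its relative Tcf7l2 fell by 1.66 (adjusted p = 1.72e-06), the epithelial integrin subunit Itgb6 by 2.24 (adjusted p = 4.64e-08), Dkk3 by 1.78 (adjusted p = 1.49e-06) and the signalling ligand Bmp6 by 2.16 (adjusted p = 0.0079). Angptl7 fell by 1.06 (adjusted p = 0.0182), and Sox9, a factor of follicle stem cell specification, fell by 0.97 (adjusted p = 0.000153), all on the log2 scale. Lgr5, Postn and Vdr were called in neither comparison, with log2 fold changes of -0.21, -0.40 and -0.06 against Ki67-positive nests. The Lgr5 gene carries the GFP allele in these mice. Fgf18 was not tested, with 22, 1 and 13 counts in the vismodegib, Ki67-positive and Ki67-negative groups. Bulge genes thus moved in both directions after vismodegib, with Krt15 and Krt24 higher and Lhx2, Tbx1 and Tcf7l1 lower in the same libraries.

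**Figure D2:**
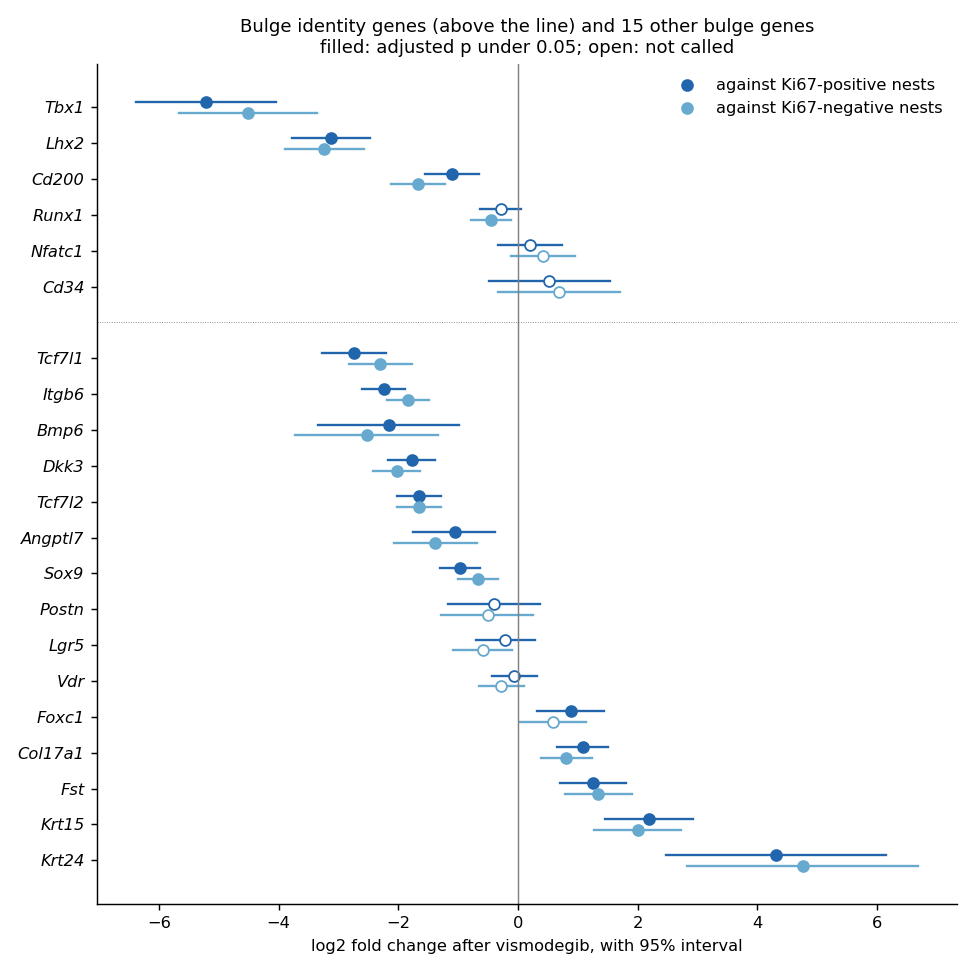
Log2 fold change after vismodegib, with its 95% interval, against Ki67-positive (dark) and Ki67-negative (light) nests for the 6 bulge identity genes and 15 other bulge genes; filled points were called. Tbx1 and Lhx2 have the lowest values shown and Krt24 and Krt15 the highest.

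LIM homeodomain proteins act with Ldb adaptors, to which LIM-only (Lmo) proteins also bind. Of 10 listed cofactors of Lhx2, all measured, 2 were higher and 2 lower in both comparisons with vismodegib. Among all genes tested, 26.0% and 31.9% were called against Ki67-positive and Ki67-negative nests. Lmo3 was nearly absent after vismodegib, with 4 counts against 389 in Ki67-positive and 557 in Ki67-negative nests (log2 fold change -6.55, SE 0.608, adjusted p = 5.46e-07 against Ki67-positive nests). Lmo4 fell by 1.32 (adjusted p = 0.000269), while Lmo1 rose by 1.15 (adjusted p = 0.000869) and the adaptor-stabilising Ssbp2 by 0.64 (adjusted p = 0.00634), on the log2 scale. Ldb1, the main adaptor, stood at 99.5 ± 18.2 CPM under vismodegib, beside 120 ± 30.8 CPM in the Ki67-positive group (SD, n = 5), and was not called. Of 11 other LIM homeobox genes 1 was measured, Lmx1b, which fell from 21.6 ± 8.03 to 0.621 ± 0.745 CPM (SD, n = 5; log2 fold change -5.0, SE 0.642, adjusted p = 2.4e-05).

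Of 15 other T-box genes 5 were measured. Tbx3, Tbx15 and Tbx18, factors of limb and skin development, were lower than in Ki67-positive nests, with log2 fold changes of -1.33 (adjusted p = 0.0264), -1.85 (adjusted p = 0.000753) and -2.51 (adjusted p = 0.00678). All 3 were also lower than in Ki67-negative nests, as was Tbx6 (-1.46, adjusted p = 0.0386). The shares lower over all genes tested were 13.4% and 16.5%. Tbx15 is also known from dermal cells.

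Calcineurin dephosphorylates NFAT proteins, which then enter the nucleus. The list of 16 genes beside Nfatc1 held this pathway and also Prlr and Cdk4, which are tied to Nfatc1 and are not parts of the pathway. Of the 16, 15 were measured, 2 of them higher and 2 lower against Ki67-positive nests, and 3 higher and 4 lower against Ki67-negative nests. The shares called over all genes tested were 26.0% and 31.9%. Nfatc2 rose from 6.18 ± 1.49 to 36.3 ± 11.9 CPM (SD, n = 5; log2 fold change 2.55, SE 0.266, adjusted p = 1.97e-06), while Nfatc1 was not called. T cells also express Nfatc2, and their summed genes were higher after vismodegib; their part in the Nfatc2 level was not tested. Prlr, the prolactin receptor, which has been linked to Nfatc1 in bulge cells, rose from 24.3 ± 14.4 to 228 ± 136 CPM (SD, n = 5; log2 fold change 3.23, adjusted p = 0.000207). Nfatc4 fell by 1.63 (adjusted p = 0.00162) and Ppp3cc, a catalytic subunit of calcineurin, by 0.98 (adjusted p = 0.00178) on the log2 scale. Cdk4, which Nfatc1 represses in bulge cells, stood at 84.9 ± 15.2 CPM after vismodegib, 115 ± 16.9 CPM in Ki67-positive and 87.4 ± 22.3 CPM in Ki67-negative nests (SD, n = 5) and was not called. Rcan2 (-2.89), Cabin1 (-0.59) and Ppp3r1 (0.48) were called against Ki67-negative nests.

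Runx proteins bind DNA with the partner Cbfb and recruit corepressors of the Tle and Runx1t1 families. Of 10 such genes, all measured, 1 was lower against Ki67-positive nests, Runx1t1 (log2 fold change -1.30, SE 0.325, adjusted p = 0.00626). Against Ki67-negative nests 3 were lower, Runx1t1 (-1.20), Cbfa2t3 (-0.86) and Tle2 (-0.67). Over all genes tested, 13.4% and 16.5% were lower in these comparisons. Cbfb stood at 167 ± 21.4 CPM under vismodegib, beside 199 ± 59 CPM in the Ki67-positive group (SD, n = 5) and was not called. Of 9 partners of Cd34 and Cd200 6 were measured. In both comparisons with vismodegib 0 were called by edgeR, DESeq2 or limma voom, with 0 at an unadjusted p under 0.05. By edgeR, 26.0% of all genes tested were called against Ki67-positive and 31.9% against Ki67-negative nests. Cd200r1, the receptor that Cd200 engages, was at 1.4 ± 1.03 CPM under vismodegib and 1.25 ± 1.65 CPM in the Ki67-positive group (SD, n = 5).

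**Figure D3:**
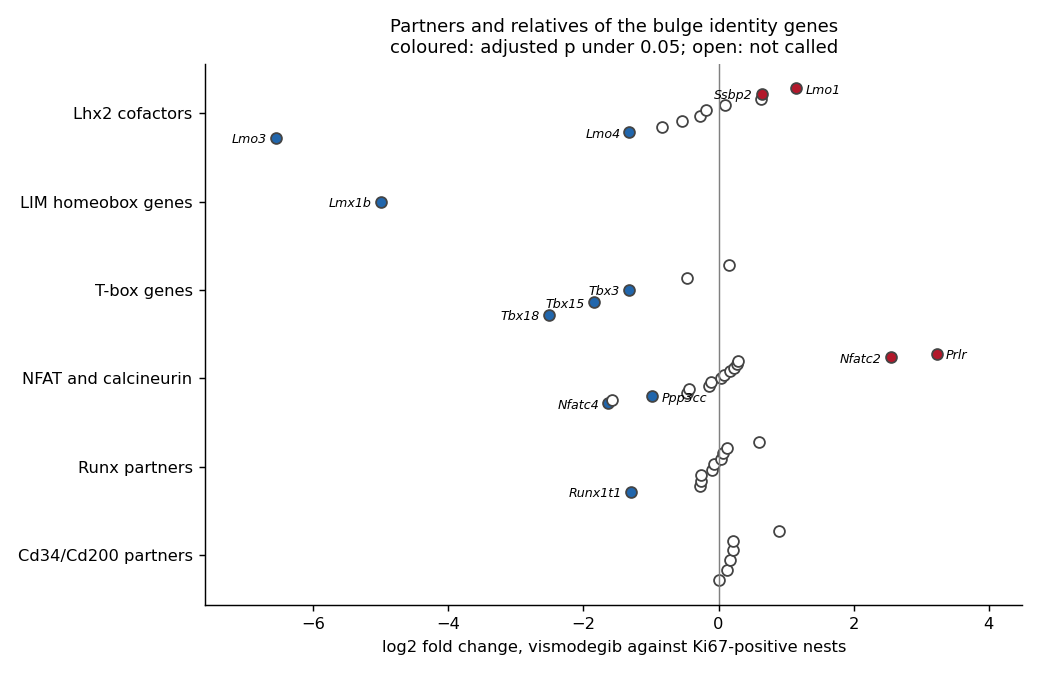
Log2 fold change after vismodegib against Ki67-positive nests for each measured gene of 6 lists of partners and relatives; coloured and named points were called (red higher, blue lower), open points were not. Lmo3 and Lmx1b lie farthest to the left, Nfatc2 and Prlr farthest to the right.

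The genes whose profile over the 15 libraries was most like that of a member were ranked by the root mean square difference of log2 CPM, each gene centred on its own mean, among 10805 genes. For Lhx2 these were Sox13 (difference 0.32) and Ptpru (0.346), set against a spread of 1.58 for Lhx2 itself. Sox13 fell from 376 ± 120 CPM in Ki67-positive nests to 27.5 ± 13.3 CPM after vismodegib (SD, n = 5). For Tbx1 they were Dclk3 (0.532) and Slc7a2 (0.578), for Cd200 F11r (0.263) and Pam (0.269), and for Runx1 Lpp (0.131) and Smarcad1 (0.169). For Nfatc1 they were Mars1 (0.237) and Uchl3 (0.243), and for Cd34 Galnt6 (0.421) and Ecm2 (0.471). The members' own spreads were 2.23 for Tbx1, 0.756 for Cd200, 0.293 for Runx1, 0.45 for Nfatc1 and 0.844 for Cd34. A small difference for a member of small spread, such as Runx1, is thus not a closer likeness. The likeness of the Lhx2, Tbx1 and Cd200 profiles holds the step between treated and untreated libraries, which many genes share.

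Within the untreated groups the members also varied among themselves. Deviations of log2 CPM from the group mean were compared in the 10 untreated libraries for all 15 pairs of members, with an exact permutation test within groups. Nfatc1 and Cd200 moved in opposite directions, with a Pearson r of -0.89 (exact permutation p = 0.00368, adjusted p = 0.0276) and a Spearman rho of -0.89 (exact permutation p = 0.00382, adjusted p = 0.0573). Without the 2 libraries farthest from the median of Nfatc1, Ki67-negative libraries 2 and 3, the r was -0.81. That r still held Ki67-negative library 5, where few genes were detected. Library 5 of both groups had the highest Nfatc1 and the lowest Cd200 of its group. Runx1 split the 10 libraries into 3 at 927 to 982 CPM and 7 at 629 to 735 CPM, so the only other pair past the adjustment on the Pearson r, Runx1 with Cd34 (exact permutation, adjusted p = 0.0276, and 0.157 on the Spearman rho), is given by its values and not by an r over separate clusters. The 3 libraries, Ki67-positive library 3 and Ki67-negative libraries 1 and 5, had the lowest Cd34 of the untreated groups, at 5.23, 7.1 and 4.19 CPM. Each member was also set against the summed genes of the 8 other cell types listed, 48 pairs in all. No pair passed the adjustment on r or rho, and the smallest adjusted p was 0.143 on r (exact permutation), reached by Lhx2 and Tbx1 with the endothelial, T and NK, mast cell and melanocyte sums. With the melanocyte sum, the r over the 8 libraries other than the 2 that stand apart was 0.25 for Lhx2 and 0.42 for Tbx1. For the other sums the 2 libraries farthest from the median of that sum were left out. For the T and NK and mast cell sums these were again Ki67-positive library 1 and Ki67-negative library 4. For the endothelial sum they were Ki67-negative libraries 4 and 1, so Ki67-positive library 1 stayed in and that r is not over the same libraries. The r was then -0.73 and -0.59 with the endothelial sum, -0.05 and -0.11 with the T and NK sum, and -0.14 and -0.0 with the mast cell sum, for Lhx2 and Tbx1.

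**Figure D4:**
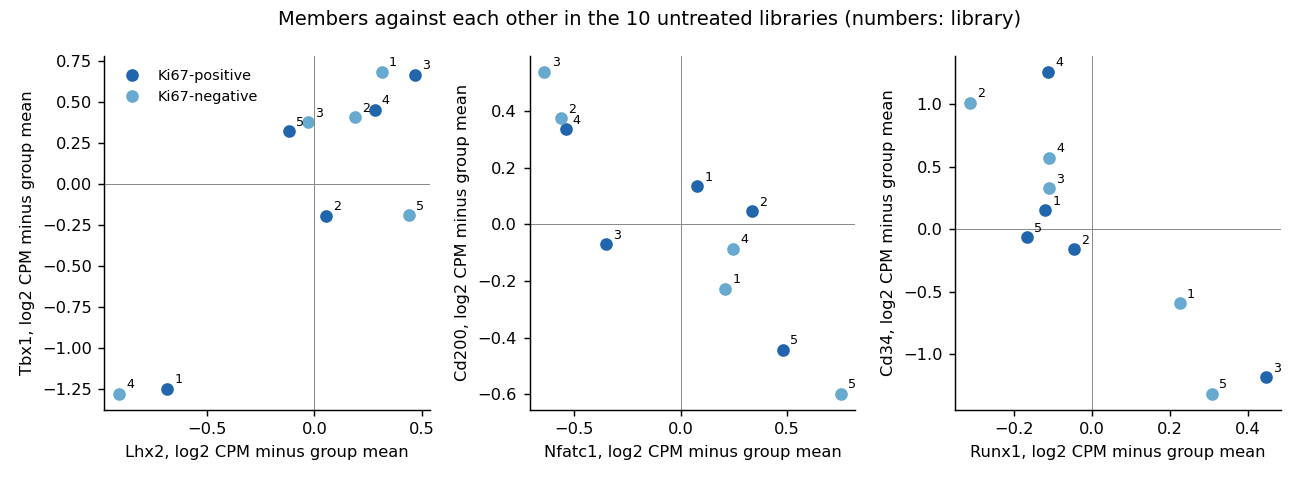
Deviation of log2 CPM from the group mean for 3 pairs of members in the 10 untreated libraries; points are libraries, numbered within the Ki67-positive (dark) and Ki67-negative (light) groups. Nfatc1 and Cd200 run in opposite directions, 2 libraries lie apart from the rest on Lhx2 and Tbx1, and 3 lie apart on Runx1 and Cd34.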

How the data were processed

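GSNAP aligned the reads to GRCm38, per the submitters' processing notes. For its version, the annotation and the strand setting, the sources used here give nothing. The deposited counts are reads aligned uniquely to a gene model, and the deposited RPKM values are adjusted by a size factor, per the file headers. Each of 304778 deposited RPKM values above 0 equalled the count multiplied by a factor for the gene and one for the library (tolerance 0.001). NCBI gene identifiers were matched to RefSeq symbols (31049 of 36528). Unmatched identifiers held 2.258% to 3.934% of counts and stayed in the fit unnamed.

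Counts of all 15 libraries entered 1 fit in edgeR 4.0.16 (R 4.3.3; TMM factors 0.937 to 1.05; filterByExpr at 10 counts and a total of 15; robust quasi-likelihood F test, two-sided, 12 residual degrees of freedom). CPM is the count over the TMM-scaled library size. The standard error is the fold change over the square root of F, and 95% intervals use the t distribution on 12 degrees of freedom. Totals of 4887381 to 10328822 counts a library limit the precision of low genes such as Tbx1. No libraries of a group were duplicates (chi-square per degree of freedom 13.24 to 43.32). DESeq2 1.42.0 and limma 3.58.1 gave alternatives, as did other scalings, other filters, a fit on only the groups compared, a covariate for Xist above Ddx3y and leaving out each library. Xist was above Ddx3y in 3 vismodegib libraries, 1 Ki67-positive library and 1 Ki67-negative library, so this covariate was uneven between the groups. The scripts were tested on simulated data.

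The members and gene lists were chosen with earlier results of these data known. A further gene of the Hedgehog-responsive list is not reported here. Named genes are the members, called genes of each list (up to 4 by smallest adjusted p in the comparison with Ki67-positive nests), list genes that a count includes, and 2 genes of like profile per member with a mean log2 CPM of at least 3, without predicted genes or pseudogenes.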

Additional observations from a re-analysis of the deposited data

Results flagged for a closer look

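In the Ki67-positive group, Runx1 stood at 964 CPM in library 3, against 629 to 685 CPM in the other 4 libraries, a gap of 0.835 of the group's range, past the critical value of 0.71 for 5 samples. Fgf18 was 0.114 CPM in Ki67-positive library 4 and 0 in the other 4, which is a single count and not a difference that this depth can show. Chance flags about 1 in 20 groups, and 2 of the 66 groups tested were flagged.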

How the results depend on the processing

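The lower levels of Lhx2, Tbx1 and Cd200 after vismodegib kept direction and call in both comparisons under all 23 alternatives, with log2 fold changes of -3.29 to -2.98, -5.42 to -4.93 and -1.23 to -0.89 against Ki67-positive nests and -3.4 to -3.09, -4.73 to -4.24 and -1.81 to -1.46 against Ki67-negative nests. The count of members called lower stayed at 3 against Ki67-positive nests and was 3 to 4 against Ki67-negative nests. The count called higher against Ki67-negative nests was 0 to 1 over the fits that left out a library; the 1 was Nfatc1 without Ki67-negative library 5 (0.65, adjusted p = 0.0458, of 0.0458 to 0.409 over its alternatives). Runx1 against Ki67-negative nests kept its call in 16 of 23 alternatives, with adjusted p from 0.0117 to 0.0901; with the Xist covariate it was -0.42 (adjusted p = 0.0588). The cause was not tested.

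Between the untreated groups the count over all genes was the least stable. Genes called higher in Ki67-negative nests numbered 0, with 5 by DESeq2 and 0 to 1 over the fits that left out a library. Genes called lower numbered 30, with 0 in the fit on only those 2 groups, 15 by limma voom, 81 by DESeq2 and 0 to 43 over the fits that left out a library. The fit on 2 groups has fewer samples; otherwise the cause was not tested. No member and no other bulge gene was called there under any of the 23 alternatives. Scaling moved the median of all genes by -0.05 to 0.016 on the log2 scale. No paired analysis was possible because the labels carry no replicate numbers and tie no library to an animal. Depth limits low genes such as Tbx1, Fgf18 and Lmo3, with 24, 22 and 4 counts over the vismodegib libraries.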
